A study of Homo sapiens with 9 samples.

Results

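RPTOR encodes raptor, the scaffold through which mTOR complex 1 (mTORC1) binds its substrates, and its messenger RNA was followed here together with those of 9 other core genes of the mTOR pathway in A2780 cells. The kinase mTOR works in mTORC1, with raptor, MLST8, AKT1S1 and DEPTOR, and in mTOR complex 2 (mTORC2), where RICTOR takes the place of raptor. Growth factors, energy and amino acids reach mTORC1 through the TSC1-TSC2 complex, which turns off the GTPase RHEB, and through the Rag GTPases at the lysosome, while DDIT4 (REDD1) is a stress-induced protein that acts through TSC1-TSC2. Active mTORC1 drives protein synthesis and growth and restrains autophagy, and the pathway is often overactive in ovarian carcinoma.

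A2780 cells are a line grown from a human ovarian carcinoma, and the drug DIG-MSK is an analogue of mithramycin A, an antibiotic that binds GC-rich DNA. The groups were untreated cells (0 nM, no drug), cells given 8 nM DIG-MSK and cells given 80 nM DIG-MSK, the last 2 for 24 h, with 3 one-colour Agilent arrays in each group and 9 in all. The methods describe the replicates as independent biological ones, and no genetic change set the groups apart. The members were found as the gene probes designed on a RefSeq transcript of the 10 genes, which gave 12 probes among 42405, and all 10 genes were among the 21832 genes tested. RPTOR was selected on these same arrays, chosen by its fall at 8 nM, so its values are described without a test.

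A level is a processed intensity as log2, relative to the 75th percentile on that array (set to 0), and a change is the difference between 2 mean levels. A level cannot be set against that of another probe, only against the same probe on other arrays. A gene was called, by the rule in the study's methods, at 1.5-fold or more or 0.67-fold or less of the compared level, where limma's unadjusted p was under 0.05, and Benjamini-Hochberg adjusted p-values over the 21832 genes are printed. Below, rose and fell are used of genes that were called or had an adjusted p under 0.05.

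The number of probes well above background ran from 24814 on the array of 8 nM replicate 2 to 27151, and arrays of one group correlated at 0.9891 or more across genes. On the untreated arrays 4 of 5 epithelial markers (EPCAM, KRT8, KRT18 and KRT7, not CDH1) and the mesenchymal marker VIM were well above background, while of 4 ovarian carcinoma markers PAX8 was so on 1 array and WT1, MUC16 and MSLN on none. Of 4 markers of blood and vessel cells, PTPRC and CD68 were well above background on all 3 untreated arrays, CD3E on 1 and PECAM1 on 0. The untreated and 8 nM arrays lay on slide 1 and the 80 nM arrays on slide 2, so that at 80 nM the treatment and the slide cannot be told apart.

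Promoter sequences are shown for RPTOR, DDIT4, RICTOR and RHEB, 4 members picked after seeing how their levels differed between the concentrations, because the mithramycins bind GC-rich DNA. Each is the 250 bases before the start of the gene in RefSeq (GRCh38.p14), 5′ to 3′ on the strand of the gene, with capitals where the GC box core GGGCGG or the EGR1 site GCGTGGGCG was found on either strand (a GCGTGGGCG followed by another G also holds a whole GGGCGG). The windows are chr17:80544588-80544837 (+) for RPTOR, chr10:72273674-72273923 (+) for DDIT4, chr5:39074400-39074649 (-) for RICTOR and chr7:151519896-151520145 (-) for RHEB.
RPTOR: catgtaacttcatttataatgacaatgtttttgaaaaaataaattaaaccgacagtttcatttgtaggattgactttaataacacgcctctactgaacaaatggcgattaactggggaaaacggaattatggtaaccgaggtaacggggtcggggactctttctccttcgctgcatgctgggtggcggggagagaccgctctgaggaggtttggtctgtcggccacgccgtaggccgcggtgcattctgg
DDIT4: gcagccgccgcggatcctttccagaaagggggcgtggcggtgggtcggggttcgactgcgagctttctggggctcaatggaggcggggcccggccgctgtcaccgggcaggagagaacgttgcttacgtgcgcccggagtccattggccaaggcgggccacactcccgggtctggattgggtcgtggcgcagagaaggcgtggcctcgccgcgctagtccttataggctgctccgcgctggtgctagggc
RICTOR: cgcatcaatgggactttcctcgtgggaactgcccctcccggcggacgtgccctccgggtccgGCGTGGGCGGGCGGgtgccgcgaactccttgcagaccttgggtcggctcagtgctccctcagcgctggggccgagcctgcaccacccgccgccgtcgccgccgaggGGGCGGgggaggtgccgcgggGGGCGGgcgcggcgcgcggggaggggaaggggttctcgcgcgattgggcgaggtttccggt
RHEB: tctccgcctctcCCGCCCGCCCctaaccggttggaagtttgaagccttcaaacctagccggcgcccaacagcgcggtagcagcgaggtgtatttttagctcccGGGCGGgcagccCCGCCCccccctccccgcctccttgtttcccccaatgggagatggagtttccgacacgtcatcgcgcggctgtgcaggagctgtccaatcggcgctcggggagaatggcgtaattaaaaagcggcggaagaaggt
The table held promoters for 7 of the 10 members, 8 promoters in all since TSC2 had 2, and MLST8, AKT1S1 and DEPTOR were not matched. A GGGCGG lay in 6 of these 8 promoters and in 42.6% of all 35116 promoters of the table. The RPTOR and DDIT4 windows held 0 each, the MTOR window and both TSC2 windows held 1 each, TSC1 held 2, and RICTOR and RHEB held 4 each. The GC content was 47.2% for RPTOR, 68.8% for DDIT4, 76% for RICTOR and 63.2% for RHEB, against a median of 58% over all promoters. RICTOR held the 1 match to GCGTGGGCG among these windows, which 0.72% of all promoters hold, and 1 TSC2 window held the E box CACGTG, which 6.34% hold. The E2F site TTTCGCGC or TTTGGCGC was in none of the 8 windows and in 0.968% of all promoters.

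By its single probe, RPTOR messenger RNA was at 0.41 of its untreated abundance at 8 nM DIG-MSK and at 0.387 at 80 nM. No second RPTOR probe could be set beside it. The RPTOR levels were 1.97, 2.02 and 2.11 on the untreated arrays, 0.65, 0.93 and 0.66 on the 8 nM arrays, and 0.60, 0.66 and 0.74 on the 80 nM arrays, in the order of the replicates. All 6 treated arrays lay below all 3 untreated ones, and the 8 nM and 80 nM arrays overlapped. The mean level of RPTOR was 2.03 ± 0.07 (SD, n = 3) without drug, 0.75 ± 0.16 at 8 nM and 0.67 ± 0.07 at 80 nM. The change of RPTOR was -1.29 (SE 0.09) at 8 nM, which is 2.44-fold lower than without drug, and -1.37 (SE 0.09) at 80 nM, which is 2.58-fold lower. Between 80 nM and 8 nM the mean RPTOR levels differed by -0.08, beside SDs of 0.16 at 8 nM and 0.07 at 80 nM. The 8 nM levels chose the gene, so this difference was not tested. Because whole cultures were extracted, less RPTOR RNA per cell and fewer cells with RPTOR RNA cannot be told apart.

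Set against the other genes, the 8 nM change of RPTOR ranked 67 from the lowest among 21832 genes, and 18 among the 18836 that were well above background on all 9 arrays. At 80 nM, where many more genes moved, it ranked 1256 and 597. These ranks describe the values that chose the gene. On slide 1 the untreated arrays and 8 nM replicate 1 lay in the same row, and with the row as a block, an alternative chosen after seeing the data that rests on this 1 treated array, the change of RPTOR at 8 nM was -1.38. With levels scaled to spike-in controls in place of the 75th percentile, the change of RPTOR at 80 nM was -1.65 and its difference between 80 nM and 8 nM -0.44.

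**Figure D1:**
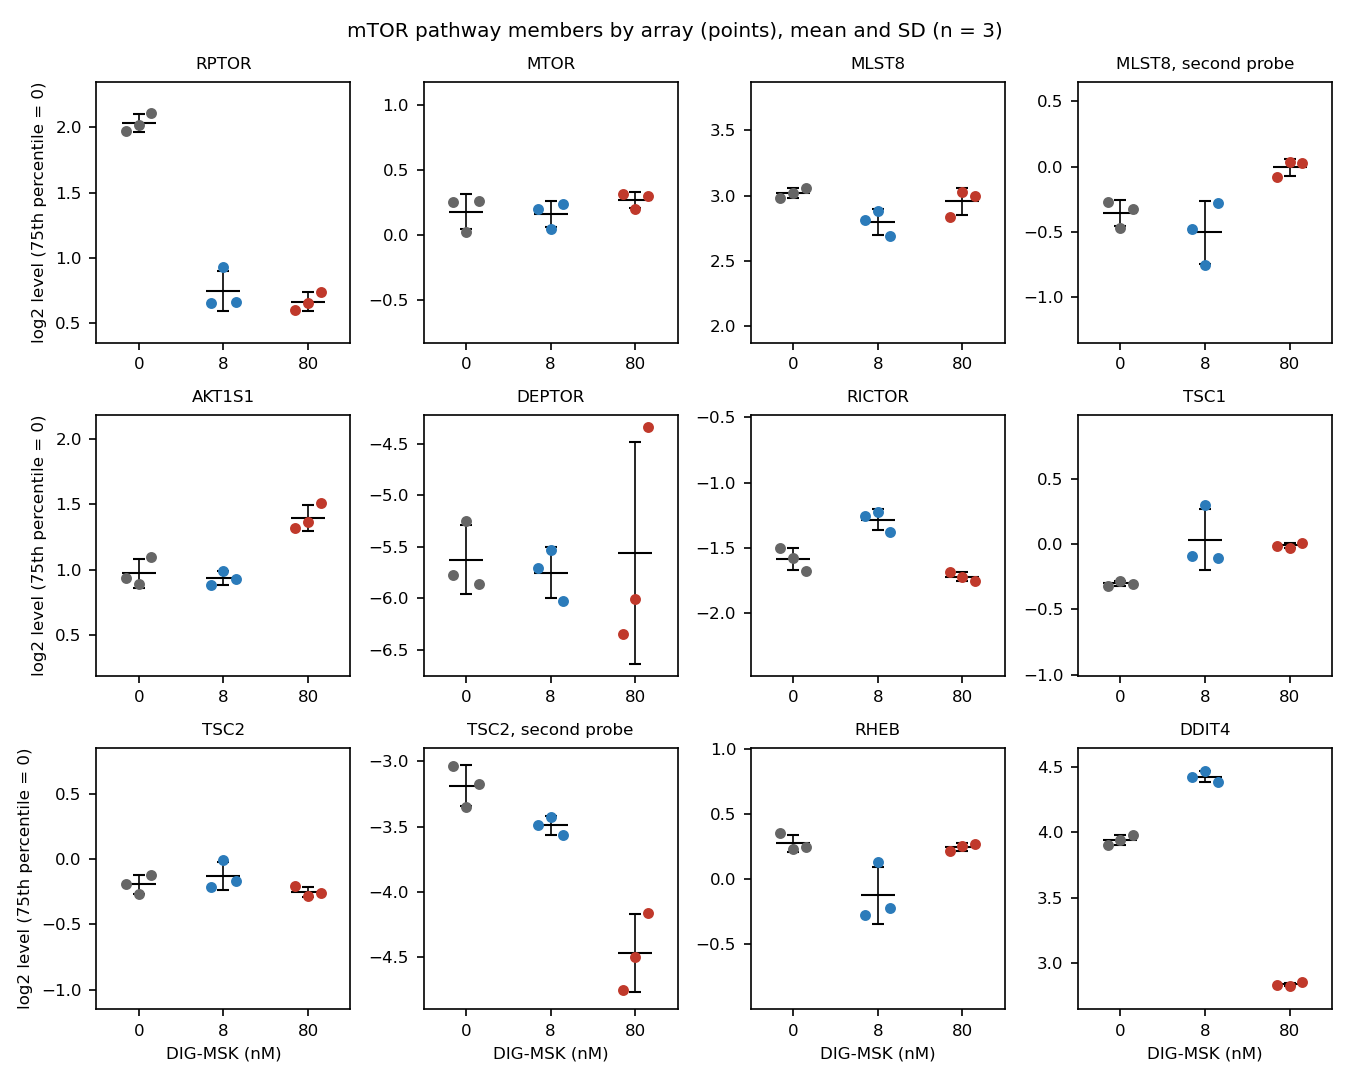
Log2 level relative to the 75th percentile of the array (y axis, one scale per panel, not comparable between panels) against the DIG-MSK concentration (x axis, nM) for each probe of the 10 genes; points are arrays, horizontal bars the mean and whiskers the SD (n = 3). RPTOR drops from a mean of 2.03 to 0.75 and 0.67, DDIT4 goes from 3.94 up to 4.43 and down to 2.84, and MTOR stays between 0.02 and 0.31 on all 9 arrays.

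Among the other 9 members, 0 were called at 8 nM, beside 4.25% of all tested genes called higher and 2.84% called lower. With the adjusted p in place of the unadjusted one in the call rule, 0 were called as well, against 3.71% and 1.42% of all genes. At an unadjusted p under 0.05, without the fold limit, limma gave 5 of the 9 (MLST8, RICTOR, TSC1, RHEB and DDIT4), and 3 of these (RICTOR, RHEB and DDIT4) had an adjusted p under 0.05, where 30.8% and 13.6% of all genes did. The changes at 8 nM ran from -0.40 (RHEB) to 0.48 (DDIT4), with a median of -0.02 beside -0.06 over all genes.

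At 80 nM, 1 of the 9 was called lower (DDIT4) and 0 were called higher, beside 16.3% of all genes called lower and 18.8% called higher. The adjusted rule gave the same counts, against 15.9% and 18.4% of all genes. Of 3 members with an unadjusted p under 0.05 in limma (AKT1S1, TSC1 and DDIT4), all had an adjusted p under 0.05, where 63.3% and 59% of all genes did. The median change of the 9 was -0.03 beside 0.08 over all genes. Between 80 nM and 8 nM, DDIT4 was again called lower and 0 were called higher, beside 14.2% and 19.5% of all genes, or 13.9% and 18.9% with the adjusted rule, and the median of the 9 was 0.11 beside 0.12.

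**Figure D2:**
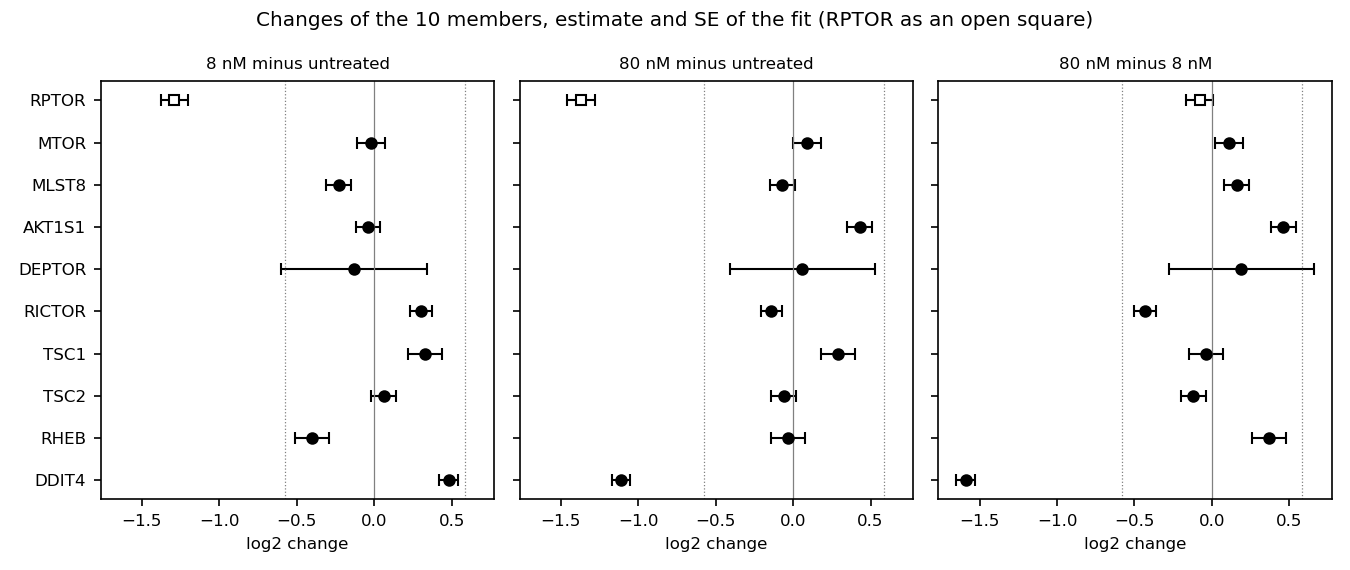
Log2 change (x axis) of each of the 10 genes (y axis) for 8 nM minus untreated, 80 nM minus untreated and 80 nM minus 8 nM; symbols are the estimates of the fit, whiskers their SE, dotted lines the 1.5-fold and 0.67-fold limits, and RPTOR, which carries no test, is the open square. Each gene is drawn by its probe with the highest mean level. Apart from RPTOR, DDIT4 lies past a limit, at -1.11 at 80 nM and at -1.59 between the concentrations. The others lie between the limits. The second TSC2 probe, not drawn, was at -1.28 at 80 nM and at -0.98 between the concentrations.

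MTOR, the kinase of both complexes, gave levels of 0.26, 0.02 and 0.26 on the untreated arrays, 0.20, 0.05 and 0.24 at 8 nM and 0.31, 0.20 and 0.30 at 80 nM. The 3 groups overlapped. The change of MTOR was -0.02 at 8 nM (95% interval -0.23 to 0.19, limma adjusted p = 0.907) and 0.09 at 80 nM (-0.12 to 0.30, adjusted p = 0.43), so that any change over 1.5-fold in MTOR lies outside both intervals.

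MLST8, a small subunit of both complexes that binds the kinase domain of mTOR, had 2 probes on the array. Its brighter probe gave levels of 2.98, 3.02 and 3.06 on the untreated arrays, 2.81, 2.89 and 2.69 at 8 nM and 2.84, 3.03 and 3.00 at 80 nM. All 8 nM arrays lay below all untreated ones, and the change of -0.23 (SE 0.08) had a limma adjusted p of 0.105. At 80 nM the MLST8 change was -0.07 (adjusted p = 0.514) by this probe and 0.35 (SE 0.12, adjusted p = 0.0358 in a limma fit over 26457 probes) by the second one, so that the probes disagreed.

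AKT1S1 (PRAS40), an inhibitory subunit of mTORC1, rose at 80 nM by less than the fold limit. The AKT1S1 levels were 0.94, 0.89 and 1.10 without drug, 0.89, 0.99 and 0.93 at 8 nM and 1.32, 1.36 and 1.51 at 80 nM. The 80 nM arrays lay above the other 6, which overlapped. The change was 0.43 (SE 0.08, 1.34-fold, limma adjusted p = 0.0028) at 80 nM and -0.04 (adjusted p = 0.786) at 8 nM. Under the spike-in scaling the 80 nM change of AKT1S1 was 0.15 with an adjusted p of 0.636, and over all 18 alternatives the adjusted p ran from 0.00204 to 0.636.

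DEPTOR, an inhibitory subunit found in both complexes, was near background. It was well above background on 6 of 9 arrays, namely all 3 untreated, 2 at 8 nM and 1 at 80 nM, and it passed the filter through the untreated group. The DEPTOR levels were -5.77, -5.25 and -5.86, then -5.70, -5.53 and -6.02, then -6.35, -6.00 and -4.34. The arrays overlapped, the change was -0.13 (SE 0.47) at 8 nM and 0.06 (SE 0.47) at 80 nM, with limma adjusted p-values of 0.875 and 0.914, and changes within the 95% interval from -1.0 to 1.13 at 80 nM could not be detected at this signal.

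RICTOR, the mTORC2 counterpart of raptor, was highest at 8 nM. The RICTOR levels were -1.50, -1.57 and -1.68 on the untreated arrays, -1.26, -1.22 and -1.38 at 8 nM and -1.68, -1.72 and -1.75 at 80 nM. The 8 nM arrays lay above the other 6, and each 80 nM array lay below each untreated one. RICTOR rose by 0.30 (SE 0.07, 1.23-fold, limma adjusted p = 0.0336) at 8 nM, while at 80 nM its change was -0.14 (adjusted p = 0.152). It was lower by 0.43 on the log2 scale at 80 nM than at 8 nM (change -0.43, SE 0.07, adjusted p = 0.00138). The adjusted p of the 8 nM change was under 0.05 in 6 of 19 alternatives, in which it ran from 0.0261 to 0.663, with a change of 0.25 to 0.38, whereas that between the concentrations was under 0.05 in all 18.

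TSC1 and TSC2 form the complex that switches off RHEB. The TSC1 levels were -0.32, -0.28 and -0.30 without drug, -0.09, 0.30 and -0.11 at 8 nM and -0.01, -0.03 and 0.01 at 80 nM. All treated arrays lay above the untreated ones, and 8 nM replicate 2 stood above the rest. The change of TSC1 was 0.33 (SE 0.11, limma adjusted p = 0.0804) at 8 nM and 0.29 (SE 0.11, 1.22-fold, adjusted p = 0.048) at 80 nM, and the latter adjusted p was under 0.05 in 9 of 18 alternatives, over which it ran from 0.00151 to 0.965.

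For TSC2, the brighter probe, on transcript NM_000548, gave levels of -0.19, -0.27 and -0.12 on the untreated arrays, -0.21, -0.01 and -0.17 at 8 nM and -0.21, -0.28 and -0.26 at 80 nM. These overlapped, with changes of 0.06 (adjusted p = 0.616) and -0.06 (adjusted p = 0.55) in limma. The second TSC2 probe, on transcript NM_001077183, gave levels of -3.04, -3.35 and -3.17, then -3.48, -3.42 and -3.56, then -4.75, -4.50 and -4.16. By this probe all 80 nM arrays lay below all others, and the change at 80 nM was -1.28 (SE 0.15, 2.43-fold lower, adjusted p = 0.000154 in the limma fit over 26457 probes). The 2 probes of TSC2 thus disagreed at 80 nM, and the mean of both gave a change of -0.67, past the fold limit.

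RHEB, the GTPase that activates mTORC1, fell at 8 nM. The RHEB levels were 0.35, 0.23 and 0.25 without drug, -0.27, 0.13 and -0.22 at 8 nM and 0.22, 0.25 and 0.27 at 80 nM. All 8 nM arrays lay below the other 6, with 8 nM replicate 2 close to them, and the untreated and 80 nM arrays overlapped. The change of RHEB was -0.40 (SE 0.11, 1.32-fold lower, limma adjusted p = 0.0453) at 8 nM, -0.03 (adjusted p = 0.832) at 80 nM and 0.37 (adjusted p = 0.0184) between 80 nM and 8 nM. The adjusted p at 8 nM was under 0.05 in 5 of 19 alternatives, with a range of 0.00308 to 0.707 and a value of 0.0805 with a replicate block, and RHEB was lower at 8 nM in each, by -0.55 to -0.32. Between 80 nM and 8 nM the adjusted p was under 0.05 in 14 of 18 alternatives. Under the spike-in scaling that change was 0.01 (limma adjusted p = 0.974).

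DDIT4, the stress-induced inhibitor upstream of TSC1-TSC2, moved in opposite directions at the 2 concentrations. The DDIT4 levels were 3.91, 3.94 and 3.98 on the untreated arrays, 4.43, 4.47 and 4.39 at 8 nM and 2.83, 2.82 and 2.85 at 80 nM. The 3 groups did not overlap, in the order 8 nM, untreated, 80 nM from the highest, and each step was larger than the spread of the arrays. DDIT4 rose by 0.48 (SE 0.06, 1.40-fold, limma adjusted p = 0.00198) at 8 nM, under the fold limit, and fell by 1.11 (SE 0.06, 2.15-fold lower, adjusted p = 2.22e-06) at 80 nM. Between 80 nM and 8 nM the change was -1.59 (SE 0.06, 3.01-fold lower, adjusted p = 2.93e-07). The 80 nM fall had an adjusted p under 0.05 in all 18 alternatives, with a change of -1.38 to -1.08. The 8 nM rise was between 0.46 and 0.57 in 19 alternatives, with an adjusted p of 0.000691 to 0.351, over 0.05 under the spike-in scaling and with the slide row as a block.

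Over the 9 arrays, the Pearson correlation of a member's level with that of RPTOR ran from -0.712 (TSC1) to 0.607 (MLST8), where the points share 3 treatment groups and so are not independent. The 5 genes most like RPTOR by this measure, among 12689 compared, were LARP4B (r = 0.997), TBC1D22A (0.989), RAB35 (0.988), BOP1 (0.985) and GTSE1 (0.984). LARP4B, an RNA-binding protein, had changes of -0.49 at 8 nM and -0.54 at 80 nM. RAB35, a GTPase of endosome recycling, had changes of -0.52 and -0.63, and TBC1D22A of -0.90 and -0.89. All 5 shared with RPTOR a lower level in treated cells and a difference of -0.12 to 0.02 between the concentrations, which is what the measure selects.

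The nearest tested genes on either side of RPTOR, as ordered in the RefSeq table, had changes of -0.32 to 0.30 at 8 nM. None of them was called there, where 4.25% of all tested genes were called higher and 2.84% lower. ENDOV and NPTX1 before it changed by 0.03 and -0.32 at 8 nM (limma adjusted p = 0.824 and 0.33), and CHMP6 and BAIAP2-DT after it by -0.13 and 0.30 (0.328 and 0.0697). At 80 nM, CHMP6, an ESCRT-III subunit, fell by 0.75 (limma adjusted p = 0.000121). NPTX1, a neuronal pentraxin well above background on 7 of 9 arrays, fell by 1.21 (adjusted p = 0.00127). Both were called lower, where 16.3% of all genes were called lower and 18.8% higher. ENDOV rose by 0.55 (adjusted p = 0.00054), under the fold limit, and BAIAP2-DT fell by 0.35 (adjusted p = 0.0133), also within it.

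Beyond the 10 members, a list of 81 other genes of the pathway was read from the same fit. Of these, 79 were found on the array and 73 were tested. The list was chosen with earlier results of these data known, so the shares of it and of its groups are descriptions, not tests. At 8 nM, 6 of the 73 were called higher (8.22%) and 0 lower, beside the 4.25% and 2.84% of all genes, and the median change was 0.03 beside -0.06. Without the fold limit, limma gave an unadjusted p under 0.05 for 15 that were higher and 14 that were lower, 39.7% of the list where 30.8% of all genes had one. At 80 nM, 9 were called higher (12.3%) and 11 lower (15.1%), beside 18.8% and 16.3% of all genes, with a median of -0.04 beside 0.08. Between 80 nM and 8 nM, 4 were called higher and 10 lower (5.48% and 13.7%), beside 19.5% and 14.2% of all genes. All these genes were also called with the adjusted p. Under the spike-in scaling, where the median over all genes shifted at 80 nM from 0.08 to -0.20 and between the concentrations from 0.12 to -0.24, the list split at 80 nM was 5 higher and 20 lower (6.85% and 27.4%, beside 10.3% and 26.1% of all genes under that scaling).

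**Figure D3:**
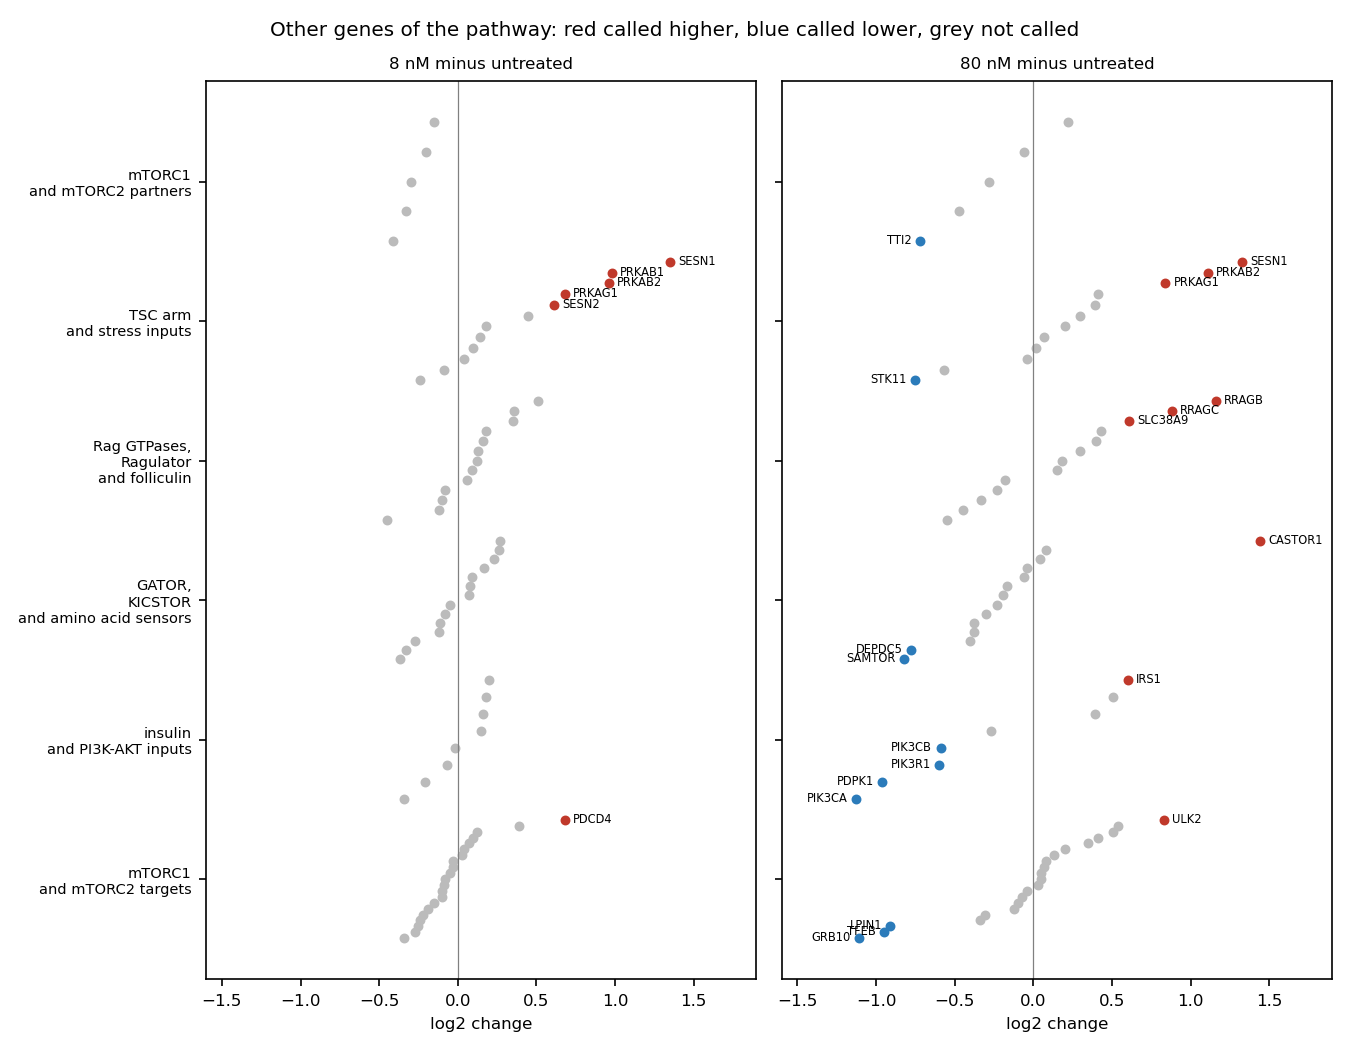
Log2 change (x axis) of the 73 other pathway genes tested, in 6 groups (y axis, ordered by change within a group), for 8 nM (left) and 80 nM (right) minus untreated; red points were called higher, blue ones lower, grey ones not called. At 8 nM the 6 called genes are all higher, and 5 of them are stress inputs, while at 80 nM 9 are higher and 11 lower across all 6 groups.

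The TSC arm and stress inputs, which hold the energy-sensing kinase AMPK and the sestrins, had 5 of 12 tested genes called higher at 8 nM and 0 lower (41.7% and 0%, beside 4.25% and 2.84% of all genes), with a median change of 0.31 beside -0.06. At 80 nM 3 were called higher and 1 lower (25% and 8.33%, beside 18.8% and 16.3%), with a median of 0.25 beside 0.08. SESN1, a stress-induced leucine-binding inhibitor of mTORC1, gave levels of -1.55, -1.16 and -1.59 without drug, -0.03, -0.25 and 0.05 at 8 nM and 0.12, -0.23 and -0.20 at 80 nM. All treated arrays of SESN1 lay above the untreated ones, and the rise was 1.35 (SE 0.15, limma adjusted p = 0.00111) at 8 nM and 1.33 (adjusted p = 0.000122) at 80 nM. The AMPK beta subunit gene PRKAB2 rose by 0.96 (SE 0.08, adjusted p = 0.000268) and 1.11 (adjusted p = 8.64e-06). Its untreated levels were 0.32, 0.55 and 0.42, those at 8 nM 1.32, 1.43 and 1.40, and those at 80 nM 1.53, 1.51 and 1.59, without overlap. The gamma subunit gene PRKAG1 rose by 0.68 (adjusted p = 0.0111) and 0.84 (adjusted p = 0.00062), although its 8 nM call was lost under normexp background correction (0.58) and without untreated replicate 1 (0.55), and its 80 nM call under the spike-in scaling (0.57).

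The other beta subunit gene, PRKAB1, rose by 0.98 (SE 0.13, adjusted p = 0.00248) at 8 nM and by 0.41 (adjusted p = 0.0231), under the fold limit, at 80 nM in limma. Its untreated levels were -1.37, -1.50 and -1.46, those at 8 nM -0.36, -0.77 and -0.26, and those at 80 nM -0.96, -1.13 and -1.0. The 3 groups of PRKAB1 did not overlap, and 80 nM was lower than 8 nM by 0.57 (change -0.57, adjusted p = 0.00576). SESN2, named after its values were seen, had levels of 1.16, 1.15 and 1.18, then 1.73, 1.84 and 1.76, then 1.29, 1.18 and 1.24. It rose by 0.61 (SE 0.06, adjusted p = 0.000891) at 8 nM, where its call was lost without 8 nM replicate 2 (0.58) and with the slide row as a block (0.57), and changed by 0.07 (adjusted p = 0.357) at 80 nM. STK11 (LKB1), the kinase that activates AMPK and also named after its values were seen, fell by 0.75 (SE 0.14, adjusted p = 0.00184) at 80 nM and changed by 0.14 (adjusted p = 0.517) at 8 nM.

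**Figure D4:**
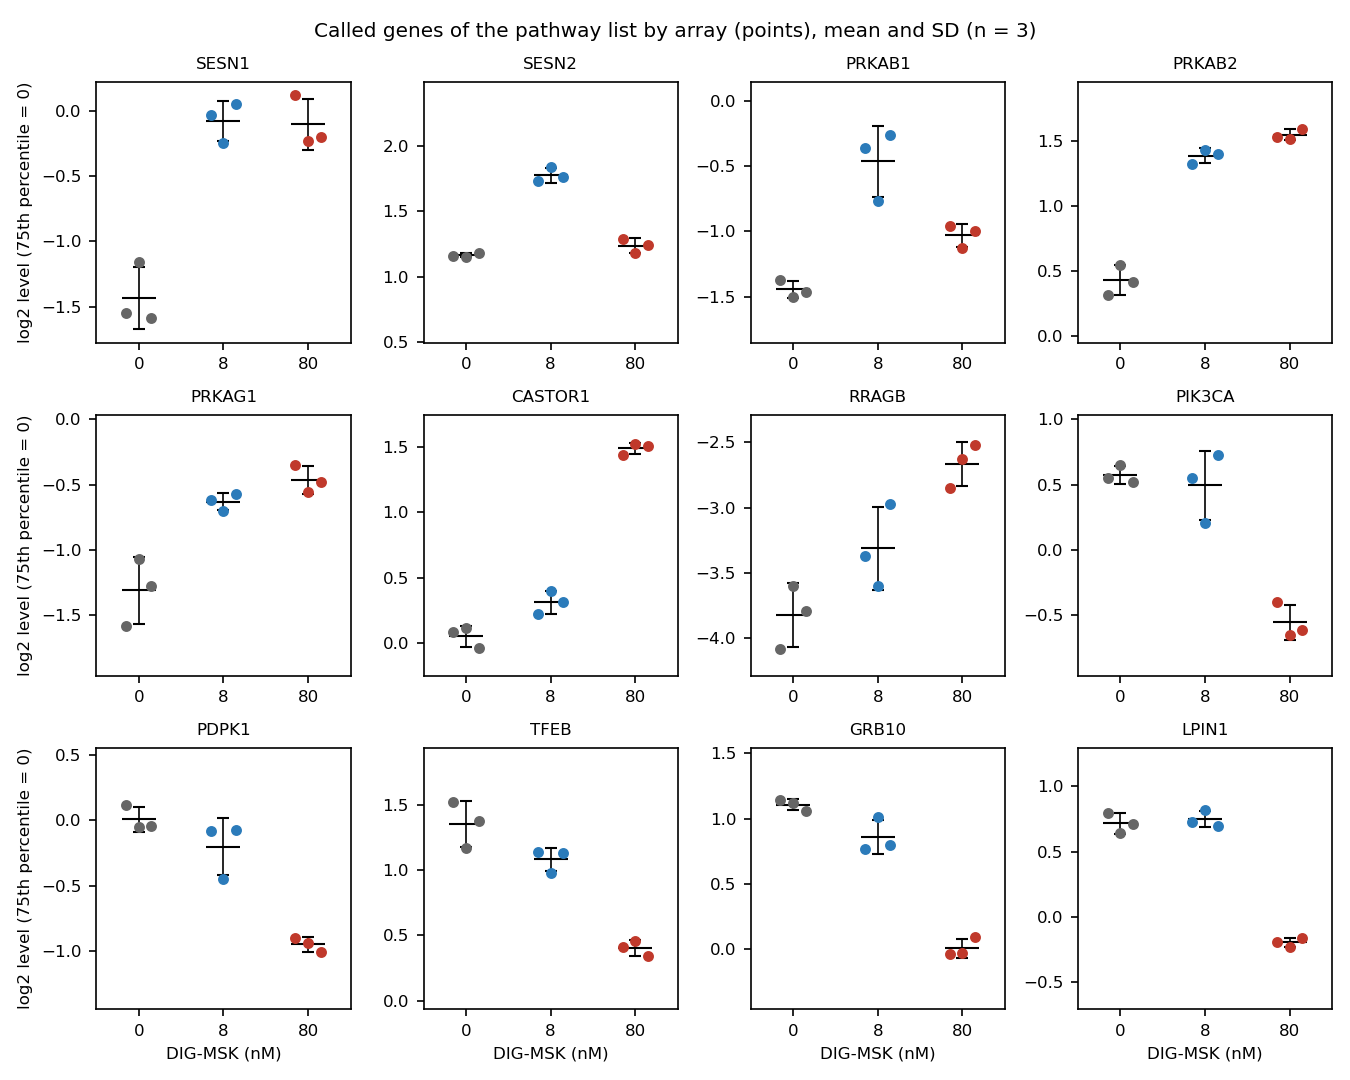
Log2 level relative to the 75th percentile of the array (y axis, one scale per panel, not comparable between panels) against the DIG-MSK concentration (x axis, nM) for 12 genes called at 8 nM or 80 nM; points are arrays, horizontal bars the mean and whiskers the SD (n = 3). SESN1 and PRKAB2 are higher on all 6 treated arrays, SESN2 at 8 nM, and CASTOR1, PIK3CA, GRB10 and LPIN1 shift at 80 nM.

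The Rag GTPases, Ragulator and folliculin group had 0 of 13 genes called at 8 nM (3, or 23.1%, with an unadjusted p under 0.05 in limma, namely RRAGB, RRAGC and RRAGD, beside 30.8% of all genes). At 80 nM 3 were called higher and 0 lower (23.1% and 0%, beside 18.8% and 16.3% of all genes). RRAGB, a GTPase that helps bring mTORC1 to the lysosome, gave levels of -4.08, -3.60 and -3.79 in untreated cells and -2.85, -2.63 and -2.52 at 80 nM, without overlap, a rise of 1.16 (SE 0.18, limma adjusted p = 0.000816). RRAGC rose by 0.88 (SE 0.14, adjusted p = 0.000782). SLC38A9, the lysosomal arginine sensor, rose by 0.61 (SE 0.09, adjusted p = 0.000483), close to the fold limit, and its call was lost under 4 alternatives, in which the change was 0.34 to 0.58. The probes of FLCN (folliculin), named after their values were seen, disagreed, with changes of -0.08 at 8 nM and 0.15 at 80 nM by the brighter one and 0.74 and 1.39 by the other.

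In the GATOR, KICSTOR and amino acid sensor group, 0 of 14 genes were called at 8 nM (3 higher and 3 lower with an unadjusted p under 0.05 in limma, 42.9% beside 30.8% of all genes). At 80 nM 1 was called higher and 2 lower (7.14% and 14.3%, beside 18.8% and 16.3% of all genes). CASTOR1, the cytosolic arginine sensor, had levels of 0.08, 0.11 and -0.04 on the untreated arrays, 0.22, 0.40 and 0.31 at 8 nM and 1.44, 1.52 and 1.51 at 80 nM. The 80 nM arrays stood far above the other 6, with a rise of 1.44 (SE 0.08, limma adjusted p = 1.75e-06) by this probe and a change of 1.65 by its other probe. SAMTOR, the sensor of S-adenosylmethionine, fell by 0.82 (adjusted p = 5.4e-05), with -0.54 by its other probe, and was not called under normexp correction (-0.42) or with the authors' values (-0.57). DEPDC5, a subunit of the GATOR1 complex that inhibits the Rag GTPases, fell by 0.78 (adjusted p = 0.00016), with -0.50 by its other probe. At 8 nM the other DEPDC5 probe gave -0.88 where the main one gave -0.27 (adjusted p = 0.0851), so that its probes disagreed there.

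The insulin and PI3K-AKT inputs had 0 of 8 tested genes called at 8 nM (IRS1 and AKT1 had an unadjusted p under 0.05 in limma, 25% beside 30.8% of all genes). At 80 nM 1 was called higher and 4 lower (12.5% and 50%, beside 18.8% and 16.3% of all genes), with a median of -0.43 beside 0.08. PIK3CA, the p110 alpha catalytic subunit of PI3K, gave levels of 0.55, 0.65 and 0.52 without drug, 0.55, 0.21 and 0.73 at 8 nM and -0.40, -0.65 and -0.61 at 80 nM. The 80 nM arrays lay below all others, and PIK3CA fell by 1.13 (SE 0.13, limma adjusted p = 0.00017). PDPK1, which phosphorylates AKT, fell by 0.96 (SE 0.11, adjusted p = 0.000149) by its brighter probe, while its other probe gave -0.18 and the mean of both -0.57, under the fold limit. PIK3R1, the regulatory subunit, fell by 0.60 (SE 0.17, adjusted p = 0.0167), close to the limit, and was no longer called under 4 alternatives. Of the genes named after their values were seen, PIK3CB fell by 0.59 (adjusted p = 0.00359) and the adapter IRS1 rose by 0.60 (adjusted p = 0.000215), and each was no longer called under 6 alternatives. The other IRS1 probe gave 1.24, and over all alternatives the IRS1 change ran from 0.32 to 0.92. AKT1, also named after its values were seen, was lower at 8 nM (change -0.34, adjusted p = 0.0247) and higher at 80 nM (0.51, adjusted p = 7e-04), both under the fold limit, and was called between the concentrations (0.84, adjusted p = 4.55e-05).

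Of the targets of the complexes, 1 of 21 was called higher at 8 nM and 0 lower (4.76% and 0%, beside 4.25% and 2.84% of all genes), and at 80 nM 1 higher and 3 lower (4.76% and 14.3%, beside 18.8% and 16.3%). PDCD4, an inhibitor of translation initiation that is degraded after S6 kinase acts on it, rose by 0.68 (SE 0.12, limma adjusted p = 0.00965) at 8 nM and changed by 0.07 (adjusted p = 0.626) at 80 nM, and without 8 nM replicate 2 the 8 nM change was 0.57, under the fold limit. At 80 nM, GRB10, an adaptor that damps insulin signalling, fell by 1.11 (SE 0.08, adjusted p = 1.28e-05). TFEB, the transcription factor of lysosome genes that mTORC1 keeps in the cytoplasm, fell by 0.95 (SE 0.10, adjusted p = 8.71e-05), with -1.50 by its other probe. LPIN1, a phosphatidate phosphatase, fell by 0.91 (SE 0.07, adjusted p = 1.58e-05). GRB10 levels were 1.14, 1.12 and 1.06 in untreated cells and -0.04, -0.03 and 0.09 at 80 nM, those of TFEB 1.52, 1.17 and 1.38 against 0.41, 0.46 and 0.34, and those of LPIN1 0.80, 0.64 and 0.71 against -0.19, -0.23 and -0.16. None of these overlapped. ULK2, an autophagy kinase named after its values were seen, rose by 0.83 (adjusted p = 0.000282), and its other 2 probes gave 2.47 and 1.38, while under the spike-in scaling its change was 0.55 and not called.

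The mTORC1 and mTORC2 partners, proteins that bind or assemble the complexes, had 0 of 5 tested genes called at 8 nM, with a median change of -0.30 and 4 lower with an unadjusted p under 0.05 in limma (MAPKAP1, PRR5, TELO2 and TTI1), where the median of all genes was -0.06 and 30.8% of them had such a p in either direction. At 80 nM 1 was called lower (20%, beside 16.3% of all genes). TTI2, part of the chaperone that helps fold mTOR and related kinases, fell by 0.72 (SE 0.22, limma adjusted p = 0.0201) at 80 nM. Its levels were -3.10, -3.17 and -3.13 on the untreated arrays, -3.15, -4.04 and -3.21 at 8 nM and -4.01, -3.79 and -3.75 at 80 nM. The 8 nM replicate 2 array lay with the 80 nM ones, and the 80 nM call was lost under normexp background correction (-0.35) and with the authors' processed values (-0.51).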

How the data were processed

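The members, the pathway list and the tests were chosen with earlier results of these data known. Groups came from the labels. The authors scanned 1 array per culture, and the deposited Feature Extraction 10.7.3.1 files hold a processed intensity per spot, corrected for background and not scaled between arrays. The authors also deposited log2 values per probe, which followed the log2 median spot signal and were used as an alternative.

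The processed intensity was taken as log2, less the 75th percentile of gene probes on each array, without control and outlier spots, averaging spots of one probe. Probes entered if every array of 1 or more groups (3 arrays each) showed them well above background, and the probe with the highest mean level stood for its gene. A RefSeq gene table gave the symbols of 25715 of 27245 probes that carry a RefSeq accession. That table gave names and the neighbours of RPTOR, with no coordinates printed. limma 3.58.1 in R 4.3.3 was fitted to all 9 arrays and all 21832 genes, with Benjamini-Hochberg adjustment, after being tested on simulated data. The number of arrays limits the precision. The alternatives were normexp correction (offset 50) on median spot signals, although mean signals had been planned, quantile normalization, scaling to 10 spike-in probes, the deposited log2 values, no filter and a stricter one, the mean of a gene's probes, a fit on the compared groups alone, a block for the replicate number, each array left out and, chosen after seeing the data, the slide row as a block.

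Named were all members, the 5 genes most like RPTOR and the 2 nearest tested genes on each side of it. Each group of the list gave, per comparison with untreated, up to 3 called genes with the largest change and an adjusted p under 0.05. The text marks genes outside this rule, except those listed only for an unadjusted p under 0.05 at 8 nM. Deviations of same-numbered replicates correlated at 0.114, 0.101 and 0.163 between untreated and 8 nM. Between untreated and 80 nM they correlated at -0.009, -0.082 and -0.003. Differently numbered arrays ran from -0.124 to -0.003 between untreated and 8 nM, but some reached 0.118 and 0.125 between 8 nM and 80 nM. These values do not show whether the numbers pair the arrays, and the main fit had no replicate block. The promoter sequences and their coordinates are from a RefSeq promoter table (GRCh38.p14).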

Additional observations from a re-analysis of the deposited data

How the results depend on the processing

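The counts of called genes were recomputed under each alternative. Of the 9 members other than RPTOR, 0 were called at 8 nM in every alternative. At 80 nM, 1 was called except with the mean of a gene's probes, where 2 were (TSC2 with DDIT4), and between 80 nM and 8 nM 1 was called except under the spike-in scaling, where 2 were (RICTOR with DDIT4). The pathway list gave 14 calls between the concentrations and 25 under the spike-in scaling (1 higher, 24 lower), while at 8 nM and 80 nM its counts stayed within 1.5 times of 6 and 20. The cause was not tested.

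Leaving out each array in turn gave 5 to 7 calls of the list at 8 nM, 19 to 21 at 80 nM and 14 to 17 between the concentrations. The difference of RPTOR between 80 nM and 8 nM ran from -0.13 to 0.01 over these, changing sign without 8 nM replicate 2. With the replicate block, the list had 6, 20 and 14 calls, and no value of a named gene crossed the call rule.

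The spike-in scaling moved the share of all called genes that were lower from 40.1% to 20.6% at 8 nM, from 46.5% to 71.8% at 80 nM and from 42.2% to 77.2% between the concentrations. Over all genes, normexp correction gave 748 calls in place of 1548 at 8 nM and 4752 in place of 7665 at 80 nM. Of 1812 values of single genes under the alternatives, 1741 stayed on their side of the call rule or, for RPTOR, moved by less than the spread between arrays, and some of these that were not called changed sign, as MTOR at 80 nM did under the spike-in scaling.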
